A study of Homo sapiens with 28 samples.

Results

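A group of 83 genes whose RNA rose late in activated Jurkat T cells is described here, out of 7485 genes in the authors' table. Jurkat is an established human T cell leukaemia line, and its cells received 0.5 µg/ml PMA (phorbol myristate acetate), an activator of protein kinase C. They received with it 2 µg/ml PHA (phytohaemagglutinin), a lectin that cross-links surface receptors including the T cell receptor. Total RNA and RNA labelled with 4-thiouridine (4sU), a uridine analogue built into RNA while it is made, were sequenced from unactivated cells and from cells 1, 2, 3 and 4 h after activation. The 28 samples form 10 groups of 3 biological replicates each, apart from both kinds of RNA at 1 h with 2, and every group is the same line in the same medium, so no genotype differs between them. The labels mark replicates A, B and C at each hour and do not say whether a letter follows a single culture through time. Each value below is the authors' group mean of a normalised signal, with the deposited SD between samples.

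The members were chosen on measured values. With T for the log2 change of mean total RNA plus 1 from unactivated cells, and L for the same change in labelled RNA, a member had T of at least 1 at 4 h, L of at least 0.5 at 4 h and L under 0.5 at 1 h. The rule also left out 16 named genes, 5 of which (CFLAR, SLC7A11, PPP3CA, CELF2 and RBMS1) would have met all 3 thresholds. For comparison, 79 genes met both 4 h thresholds with L of at least 0.5 already at 1 h and are called the early set, and 20 met the threshold for total RNA alone. Just inside the total RNA threshold lay DCUN1D3 and SLC31A2 (both 1.01) and SYNJ2 (1.01), and just outside it SCML1 (1.00, below the threshold before rounding), GPR174 (0.99) and ID1 (0.99). For labelled RNA at 4 h the nearest members were RASSF5 (0.50), CASC7 (0.53) and AGO2 (0.56), and the nearest genes outside were C21orf91 (0.48), DGKD (0.48) and MIDN (0.46). For labelled RNA at 1 h, RP11-94L15.2 (0.50), STK17B (0.50) and VGLL4 (0.48) lay just below 0.5, while SLFN5, FGFR1 and RRAS2 (each 0.51) lay just above.

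Signals from the T cell receptor and protein kinase C first switch on transcription factors that need no new protein, such as AP-1, EGR and NF-kB family members. Their products then act on a later wave of genes that encode receptors, adaptors, chromatin proteins and enzymes. Because total RNA holds old and new transcripts together, a change in synthesis appears in labelled RNA before it has altered the total, and the delay grows with the lifetime of the transcript. In bulk RNA, a change in the number of cells that express a gene and a change in RNA per cell cannot be told apart.

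Promoter sequence is shown for 4 members with large rises in total RNA, chosen because it holds a match to a motif of activation-induced factors. The promoters of MFSD6, ZSWIM6, JAG1, RCOR1 and HDAC7, whose rises were as large as or larger than that of CDK17, held no match to any motif searched. RefSeq's promoter table (build GRCh38.p14, 250 bases before to 50 bases after each start) held 63 of the 83 members and 6260 of all genes. Capitals mark matches on either strand to a CRE (TGACGTCA), the motif of CREB and ATF factors, to an EGR site (GCGNGGGCG), or to a kappaB site. The promoter of FLT1 lies at chr13:28495079-28495378 on the minus strand and holds 1 match of each kind. That of PALD1 lies at chr10:70478517-70478816 on the plus strand, that of CLSTN3 at chr12:7130121-7130420 on the plus strand and that of CDK17 at chr12:96400390-96400689 on the minus strand. Each holds 1 match in capitals. PALD1 also holds 1 match to the NFAT core (GGAAAA), which is not in capitals.
FLT1: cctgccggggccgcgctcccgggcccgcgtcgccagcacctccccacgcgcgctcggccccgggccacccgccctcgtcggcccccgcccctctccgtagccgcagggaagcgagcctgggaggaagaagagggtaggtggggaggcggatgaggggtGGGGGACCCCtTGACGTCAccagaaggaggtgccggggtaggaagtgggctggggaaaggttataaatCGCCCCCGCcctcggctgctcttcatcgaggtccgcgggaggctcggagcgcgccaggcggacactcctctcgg
PALD1: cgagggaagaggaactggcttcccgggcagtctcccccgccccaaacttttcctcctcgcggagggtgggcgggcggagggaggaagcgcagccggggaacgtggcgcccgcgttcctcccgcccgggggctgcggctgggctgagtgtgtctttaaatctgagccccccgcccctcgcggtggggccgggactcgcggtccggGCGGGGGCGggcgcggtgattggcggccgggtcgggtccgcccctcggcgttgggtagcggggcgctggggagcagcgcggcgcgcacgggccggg
CLSTN3: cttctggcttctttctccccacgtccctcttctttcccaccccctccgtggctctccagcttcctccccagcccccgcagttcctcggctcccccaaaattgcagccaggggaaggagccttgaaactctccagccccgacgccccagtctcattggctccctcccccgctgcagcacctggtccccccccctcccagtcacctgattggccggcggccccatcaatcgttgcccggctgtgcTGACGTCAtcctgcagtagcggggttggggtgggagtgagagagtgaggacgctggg
CDK17: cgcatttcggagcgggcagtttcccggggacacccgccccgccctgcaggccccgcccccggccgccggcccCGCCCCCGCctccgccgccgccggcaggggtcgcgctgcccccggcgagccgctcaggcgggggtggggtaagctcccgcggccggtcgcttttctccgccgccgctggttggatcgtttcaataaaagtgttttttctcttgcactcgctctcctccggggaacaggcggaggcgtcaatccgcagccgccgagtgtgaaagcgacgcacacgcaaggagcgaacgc

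Among all members with a promoter, an EGR match was found in 18 of 63 (28.6%), against 15.1% of all 6260 promoters and 34.4% of those of the early set. Promoters with an EGR match are rich in G and C. Their median GC content was 77.5% in the members and 73.0% over all genes, while all member promoters had a median of 67.0% and all promoters 65.0%. All promoters of the early set had a median of 69.7%. Those of the genes past the threshold for total RNA alone had a median of 73.3%, with an EGR match in 5 of 18 (27.8%). Member promoters without an EGR match had a median of 63.3%, against 63.7% over all genes. The part of base composition in the EGR share was not tested. An ETS match (CCGGAAG) ran the other way, in 6 members (9.52%) against 23.8% of all promoters. The kappaB site was matched in 9 members (14.3% against 11.9%), AP-1 (TGANTCA) in 3 (4.76% against 3.88%), the CRE in 3 (4.76% against 3.93%), the CArG box of serum response factor in 2 (3.17% against 1.07%), the NFAT core (GGAAAA) in 12 (19.0% against 21%) and the E-box (CACGTG) in 7 (11.1% against 11.3%). IFNGR2 held the most EGR matches, with 4, beside 3 kappaB matches, overlapping matches counted separately. In FLT1 the kappaB and CRE matches lie next to each other and do not overlap. A match describes letters in this window and does not show that a factor binds there.

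The authors' RPKM of total RNA, which is scaled by gene length, ran from 1.75 for GCNT4 to 922 for FLNA among the members, with a median of 30.9 against 54.5 over all genes. The ratio of the 4 h mean to the unactivated mean ran from 2.05 to 10.5 with a median of 2.62. At 1 h no member had a total change of 1 or more. At 2 h, 7 of 83 had reached it (FLT1, RASGEF1B, IFNGR2, UPP1, YES1, RNF19A and PRDM1), against 0.908% of all genes, and at 3 h 48 of 83 had, against 2.35%. In labelled RNA 59 members were at or above 0.5 at 2 h (10% of all genes) and 80 at 3 h (12.3%). ARID5B, SAMD8 and STK17B were the members still below 0.5 at 3 h. These changes share the unactivated samples with the rule, so they describe the timing and carry no test.

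**Figure D1:**
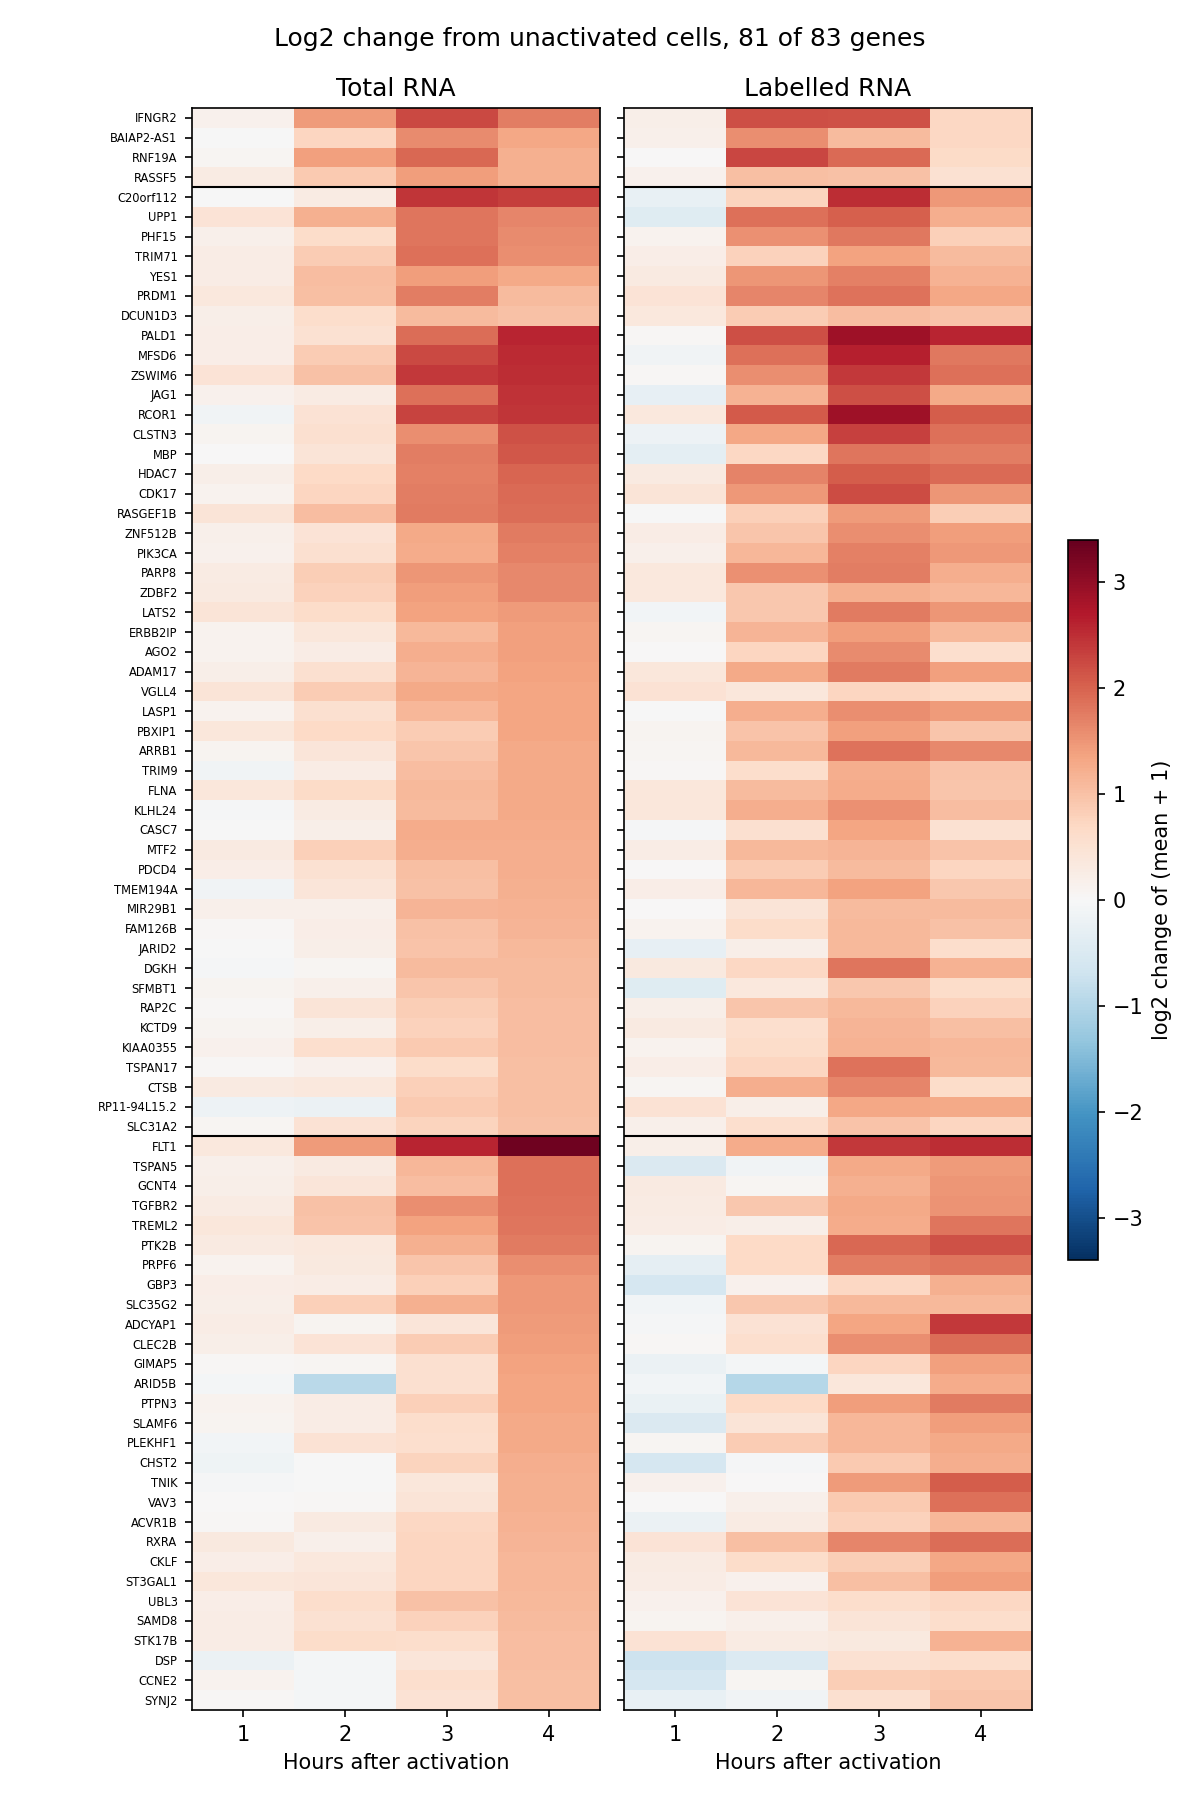
Log2 change of the group mean plus 1 from unactivated cells at 1, 2, 3 and 4 h (x axis) for 81 of the 83 genes (rows), in total RNA on the left and labelled RNA on the right, with red above and blue below unactivated cells. Black lines separate the 4 genes whose labelled RNA was highest at 2 h, the 48 highest at 3 h and the 29 highest at 4 h, and colour deepens in labelled RNA before total RNA in the upper blocks.

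Labelled RNA reached its highest mean before total RNA in 45 of 83 members and after it in 0. In 41 of the members labelled RNA was highest at 3 h and total RNA at 4 h, in 31 both were highest at 4 h, and in 7 both were highest at 3 h. The remaining 4 (IFNGR2, BAIAP2-AS1, RNF19A and RASSF5) had their highest labelled mean at 2 h and their highest total mean at 3 h. Labelled RNA at 4 h was below its 3 h mean in 52 members, whereas total RNA was below it in 11. Total RNA climbed at every hour in 53 members. The rule used the 4 h means of both kinds of RNA, with a higher threshold for total RNA, and labelled RNA at 1 h. These counts therefore follow in part from the choice and carry no test. Labelled RNA was highest at 3 h in 48 members, against 45.6% of the early set and 15.5% of all genes. Total RNA was highest at 4 h in 72 members, against 60.8% of the early set and 24.9% of all genes. For the other counts of this paragraph, shares over all genes were not counted. The median change of labelled RNA was 0.08 at 1 h, 0.76 at 2 h, 1.35 at 3 h and 1.23 at 4 h, while that of total RNA was 0.16, 0.46, 1.08 and 1.33. Over all genes each of these medians lay between -0.01 and 0.07.

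The interval from 2 to 3 h used no sample that entered the rule, in either kind of RNA, and could therefore be tested. A member had to rise at some time before 4 h, so the test shows how much of the rise fell in this hour and not that the genes rose at all. In total RNA 65 of 83 members rose and 0 fell (limma on group summaries, Benjamini-Hochberg adjusted over all genes), where 3.94% of all genes rose and 3.73% fell. The median change was 0.61, against -0.03 for all genes and 0.45 for the early set, in which 38 of 79 rose and 4 fell. In labelled RNA 32 of 83 rose and 0 fell, with 1.15% of all genes rising and 1.02% falling. Here the median change was 0.62, against -0.01 for all genes and 0.18 for the early set, in which 4 of 79 rose and 3 fell. Both kinds of RNA rose in 28 members, total RNA alone passed in 37, labelled RNA alone in 4 and neither in 14. SDs of total RNA were larger at 3 h than at the other hours, with a median coefficient of variation of 11.2% against 6.37% to 7.91%. Calls named below as lost under a setting had an adjusted p of 0.05 or more there. With the variance taken from the 2 h and 3 h groups alone, 53 members rose in total RNA and 47 in labelled RNA.

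**Figure D2:**
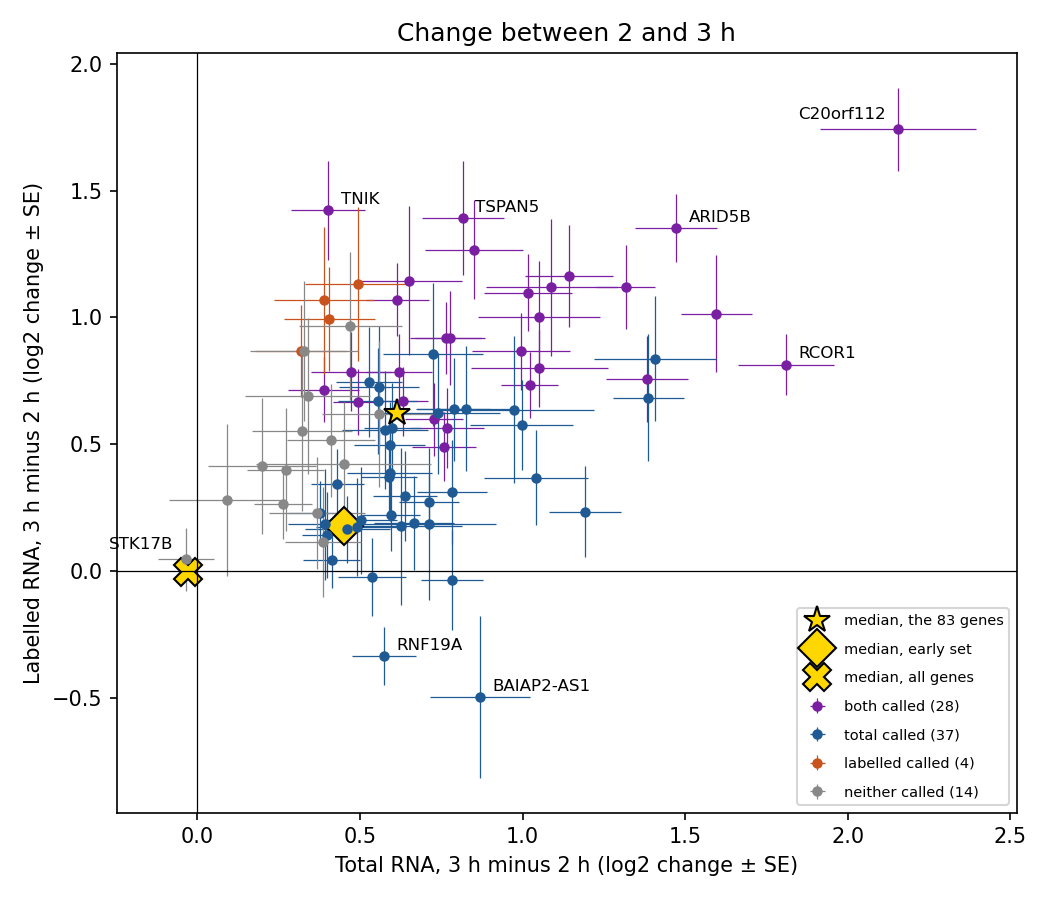
Each point is 1 of the 83 genes, with the log2 change of total RNA from 2 to 3 h on the x axis and that of labelled RNA on the y axis, bars showing ± SE and colours showing which change passed an adjusted p of 0.05. The gold markers are medians: the 83 genes lie at 0.61 and 0.62, the early set at 0.45 and 0.18, and all genes near 0 on both axes.

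Total RNA at 1 h did not enter the rule either, although labelled RNA of the 1 h samples did. From 1 to 2 h total RNA rose in 21 members and fell in 1 (ARID5B), where 1.76% of all genes rose and 1.1% fell, with a median change of 0.29 against 0.01. In the early set 40 of 79 rose over this hour, with a median of 0.56. From 1 to 3 h 77 members rose and 0 fell, where 9.41% of all genes rose and 8.67% fell, and the median change was 0.94 against -0.02. With the variance of the groups compared alone these counts were 33 rising from 1 to 2 h and 64 from 1 to 3 h. Of the 21 that rose from 1 to 2 h, 20 rose again from 2 to 3 h, and STK17B was the exception. The 6 members that passed neither from 1 to 3 h nor in the shorter steps of total RNA were ADCYAP1, PBXIP1, SLAMF6, RXRA, ST3GAL1 and CTSB.

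**Figure D3:**
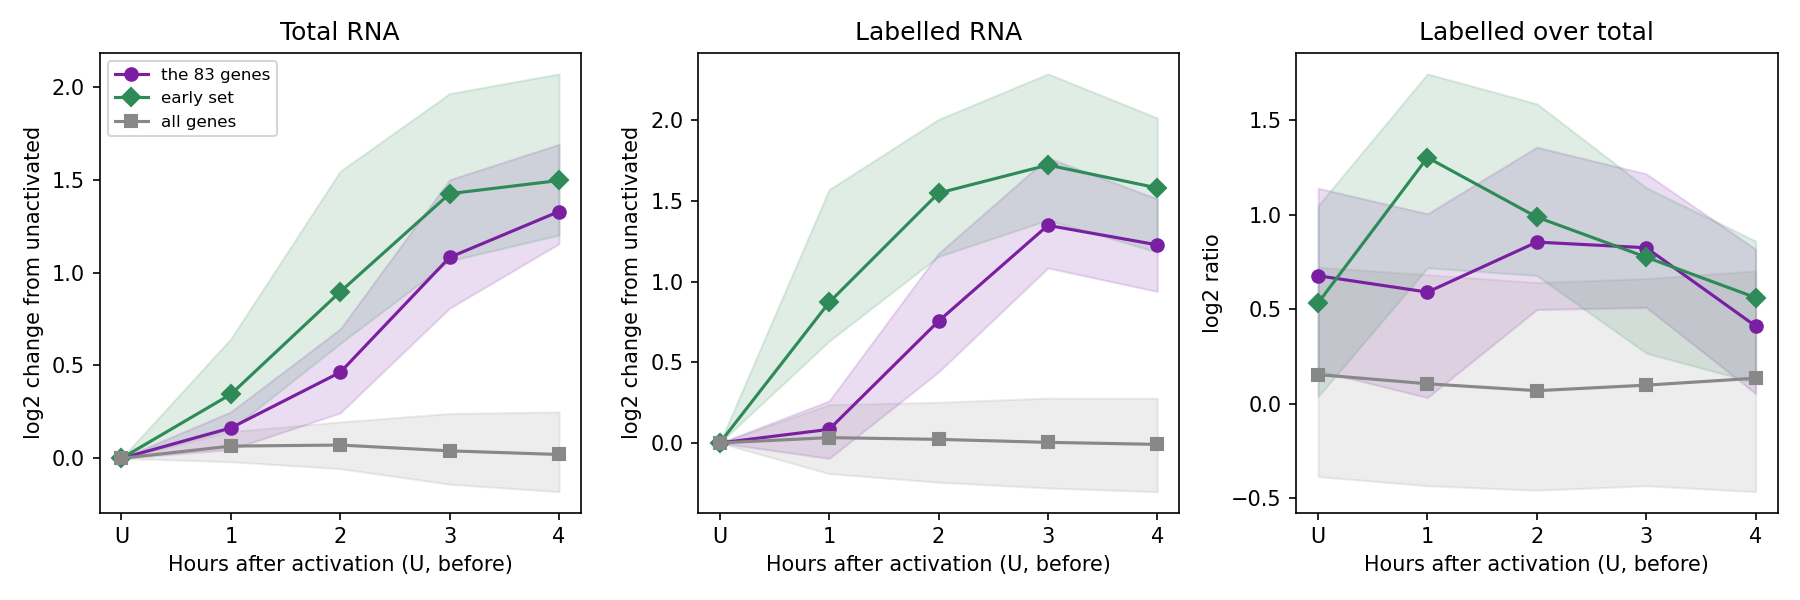
Median log2 change from unactivated cells of total RNA (left) and labelled RNA (middle), and median log2 ratio of labelled to total RNA (right), by hour after activation, for the 83 genes, the early set of 79 genes and all 7485 genes, with shading from the lower to the upper quartile. The 83 genes move from 0.16 to 1.33 in total RNA between 1 and 4 h, and their labelled RNA is highest at 3 h with a median of 1.35.

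Cell surface receptors and ligands made up much of the top of the group. FLT1, the receptor VEGFR1 for vascular endothelial growth factors, had the largest rise by 4 h. Its total RNA was 15.8 ± 0.423, 20.5 ± 5.05, 45.2 ± 9.63, 101 ± 3.34 and 167 ± 16.7 at unactivated, 1, 2, 3 and 4 h in that order, and its labelled RNA was 26.5 ± 11.2, 30.3 ± 3.16, 64.4 ± 8.95, 146 ± 11.5 and 156 ± 7.15. The SD ranges of total RNA at 1, 2, 3 and 4 h did not overlap from hour to hour. Total RNA rose from 1 to 2 h by 1.10 ± 0.15 (adjusted p = 0.000174) and from 2 to 3 h by 1.14 ± 0.14 (adjusted p = 2.27e-05), and labelled RNA rose from 2 to 3 h by 1.16 ± 0.20 (adjusted p = 0.000201). JAG1, a membrane ligand of Notch receptors, stayed low in total RNA for 2 h (14 ± 0.435, 15.7 ± 0.573, 17.2 ± 0.881, 54.2 ± 7.73 and 81.2 ± 1.94) while its labelled RNA at 2 h was already above the earlier groups (23 ± 8.65, 18.8 ± 3.71, 53.7 ± 2.55, 109.6 ± 0.34 and 57.5 ± 18.7). From 2 to 3 h JAG1 rose by 1.60 ± 0.11 (adjusted p = 1.48e-08) in total and by 1.01 ± 0.23 (adjusted p = 0.00697) in labelled RNA, a labelled call lost under a constant prior variance. At 4 h the SD range of its labelled RNA was wide and held the 2 h mean, while total RNA was at its highest. CLSTN3, a calsyntenin found at synapses, had total values of 9.81 ± 2.88, 10.4 ± 1.74, 14.7 ± 1.82, 31.6 ± 6.93 and 47.9 ± 7.44. CLSTN3 rose from 2 to 3 h by 1.05 ± 0.19 (adjusted p = 0.00143) in total and by 1 ± 0.22 (adjusted p = 0.00529) in labelled RNA.

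Among 36 measured cytokine and costimulatory receptors, 6 rose and 3 fell in total RNA from 2 to 3 h, with a median of 0.09. Over all genes 3.94% rose and 3.73% fell in that hour. List counts here and below include the members, which were chosen for a rise by 4 h, and are no test of a family. The receptors hold 3 members, TGFBR2, IFNGR2 and SLAMF6, where members make up 1.11% of all genes. TGFBR2, the type II receptor for TGF-beta, had a higher mean at every hour in total RNA (11.8 ± 0.921, 14.5 ± 1.79, 24.6 ± 1.64, 37.5 ± 6.32 and 45.4 ± 4.9) and in labelled RNA (33.5 ± 3.87, 40.5 ± 1.72, 63.8 ± 11.3, 83.7 ± 9.92 and 98 ± 18.4). Its total RNA rose in both steps, by 0.72 ± 0.15 (adjusted p = 0.00709) and then 0.59 ± 0.13 (adjusted p = 0.00695), and its labelled change from 2 to 3 h was 0.39 ± 0.19 (adjusted p = 0.352), not past the threshold. ACVR1B, a type I receptor for activins, moved later and less, with total values of 12.3 ± 1.9, 12.6 ± 0.547, 15.3 ± 0.903, 20.7 ± 3.45 and 28.8 ± 1.58 and a change from 2 to 3 h of 0.41 ± 0.14 (adjusted p = 0.0709). The list of TGF-beta, BMP, Notch and Wnt components that holds these receptors and JAG1 had 4 of 31 measured genes rise and 2 fall in that hour, with a median of 0.13.

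IFNGR2, the signalling chain of the interferon-gamma receptor, was among the earliest members. Its total RNA was 21.3 ± 0.213, 23.7 ± 0.955, 60.1 ± 2.69, 104 ± 11.6 and 73.3 ± 2.92. Labelled RNA of IFNGR2 was 22 ± 2.83, 25.3 ± 0.0406, 104 ± 11.7, 102 ± 7.24 and 36.1 ± 3.46, so labelled RNA was high at 2 and 3 h and far below both at 4 h. Total RNA rose by 1.31 ± 0.11 (adjusted p = 1.81e-07) from 1 to 2 h and by 0.78 ± 0.09 (adjusted p = 2.22e-05) from 2 to 3 h, whereas labelled RNA changed by -0.04 ± 0.20 (adjusted p = 0.965) in the latter hour. SLAMF6, a homotypic receptor of lymphocytes, was low throughout (total 5.42 ± 0.681, 5.8 ± 0.78, 6.62 ± 1.06, 8.64 ± 2.83 and 14.8 ± 2.38) and its change from 2 to 3 h did not pass in total (0.34 ± 0.19, adjusted p = 0.302) or in labelled RNA (0.69 ± 0.31, adjusted p = 0.288). The surface molecules TREML2 and CLEC2B, and ADCYAP1, a secreted neuropeptide, had their highest mean at 4 h in both kinds of RNA. For ADCYAP1 the 3 h and 4 h totals were 9.47 ± 0.97 and 20.4 ± 2.46, and the labelled values 17.6 ± 2.17 and 37.5 ± 3.14. ADAM17, the protease that sheds TNF from the cell surface, rose in total RNA from 2 to 3 h by 0.59 ± 0.11 (adjusted p = 0.00169).

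VAV3, an exchange factor for small GTPases that acts in T cell receptor signalling, was flat for 2 h in both kinds of RNA, with totals of 154 ± 19.2, 156 ± 0.313, 159 ± 23.1, 209 ± 4.5 and 355 ± 40.0. VAV3's labelled means were 182 ± 17.6, 182 ± 10.8, 205 ± 32.2, 338 ± 44.7 and 671 ± 37. From 2 to 3 h it rose by 0.39 ± 0.11 (adjusted p = 0.0329) in total and by 0.71 ± 0.13 (adjusted p = 0.000334) in labelled RNA. Its highest means were at 4 h in both kinds of RNA, and the SD ranges at 4 h lay above those of every earlier hour. Of 45 measured T cell receptor signalling genes 9 rose and 6 fell in total RNA from 2 to 3 h (median 0.09). In labelled RNA 4 rose and 0 fell. Shares of all genes were 3.94% rising and 3.73% falling in total RNA, and 1.15% and 1.02% in labelled RNA. The VAV3 call in total RNA was lost when the variance came from the 2 groups compared alone and under a constant prior variance.

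Kinases and phosphatases outside the MAP kinase pathway held 5 members among 80 measured genes, where members make up 1.11% of all genes. From 2 to 3 h 11 of the 80 rose and 2 fell in total RNA, against 3.94% and 3.73% of all genes. TNIK, a kinase that acts on JNK and Wnt signalling, stood at the late end: total RNA was 32.6 ± 2.32, 31.5 ± 2.54, 32.4 ± 4.6, 43.2 ± 3.58 and 75.9 ± 6.68 and labelled RNA 26.7 ± 2.82, 29.5 ± 0.0737, 27.1 ± 3.09, 74.4 ± 6.36 and 114 ± 2.08. Labelled RNA rose from 2 to 3 h by 1.42 ± 0.20 (adjusted p = 3.25e-06) and total RNA by 0.40 ± 0.11 (adjusted p = 0.0352), a total call lost with the variance of those 2 groups alone. The difference between these changes, 1.02 ± 0.20 (adjusted p = 0.00738), made TNIK the member whose labelled-to-total ratio rose in that hour. CDK17, a cyclin-dependent kinase of the PCTAIRE family whose promoter is printed above, had totals of 75.6 ± 2.02, 82.4 ± 10.0, 125 ± 5.53, 255 ± 20.5 and 291 ± 21.3. CDK17's labelled means were 114 ± 23, 153 ± 14.1, 319 ± 28, 531 ± 16 and 327 ± 17.7. It rose in every tested step, by 0.60 ± 0.10 (adjusted p = 0.00109) and 1.02 ± 0.09 (adjusted p = 3.38e-07) in total and by 0.74 ± 0.13 (adjusted p = 0.000273) in labelled RNA. PIK3CA, the catalytic p110-alpha subunit of PI3 kinase, rose in the same steps by 0.39 ± 0.10 (adjusted p = 0.0401), 0.73 ± 0.09 (adjusted p = 3e-05) and 0.60 ± 0.14 (adjusted p = 0.0122). The labelled call of PIK3CA was lost under a constant prior variance. Its total RNA went from 75.3 ± 6.4 before activation to 249.7 ± 18 at 4 h.

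STK17B, a kinase linked to apoptosis of T cells, did not follow the others. Its total RNA was 152 ± 6.65, 181 ± 25.2, 235 ± 6.67, 229 ± 5.5 and 317 ± 26.1. Labelled RNA of STK17B was 279 ± 34.2, 394 ± 33.9, 341 ± 61.1, 352 ± 33.5 and 629 ± 43.8, with a plateau from 2 to 3 h and a later rise. The change from 2 to 3 h was -0.04 ± 0.09 (adjusted p = 0.839) in total and 0.05 ± 0.12 (adjusted p = 0.923) in labelled RNA, the lowest total change of the group. From 1 to 2 h it had risen by 0.37 ± 0.10 (adjusted p = 0.0397), a call lost under quantile normalisation and under a constant prior variance, as was that of PIK3CA. PTPN3, a tyrosine phosphatase with a PDZ domain, rose in total RNA by 0.56 ± 0.12 (adjusted p = 0.00707) from 2 to 3 h. The SRC family kinase YES1 peaked at 3 h (95 ± 3.7, 113 ± 13.8, 197 ± 10.0, 256 ± 19 and 231 ± 30.0) and had the larger change before 2 h, with 0.79 ± 0.11 (adjusted p = 0.000154) from 1 to 2 h and 0.38 ± 0.10 (adjusted p = 0.0207) from 2 to 3 h, the latter lost with the variance of those 2 groups alone. PTK2B, the calcium-responsive kinase PYK2, rose by 0.85 ± 0.15 (adjusted p = 0.00105) in total and 1.27 ± 0.19 (adjusted p = 2.08e-05) in labelled RNA over the latter hour, and diacylglycerol kinase DGKH by 1.02 ± 0.14 (adjusted p = 9.48e-05) and 1.10 ± 0.15 (adjusted p = 3.25e-06).

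**Figure D4:**
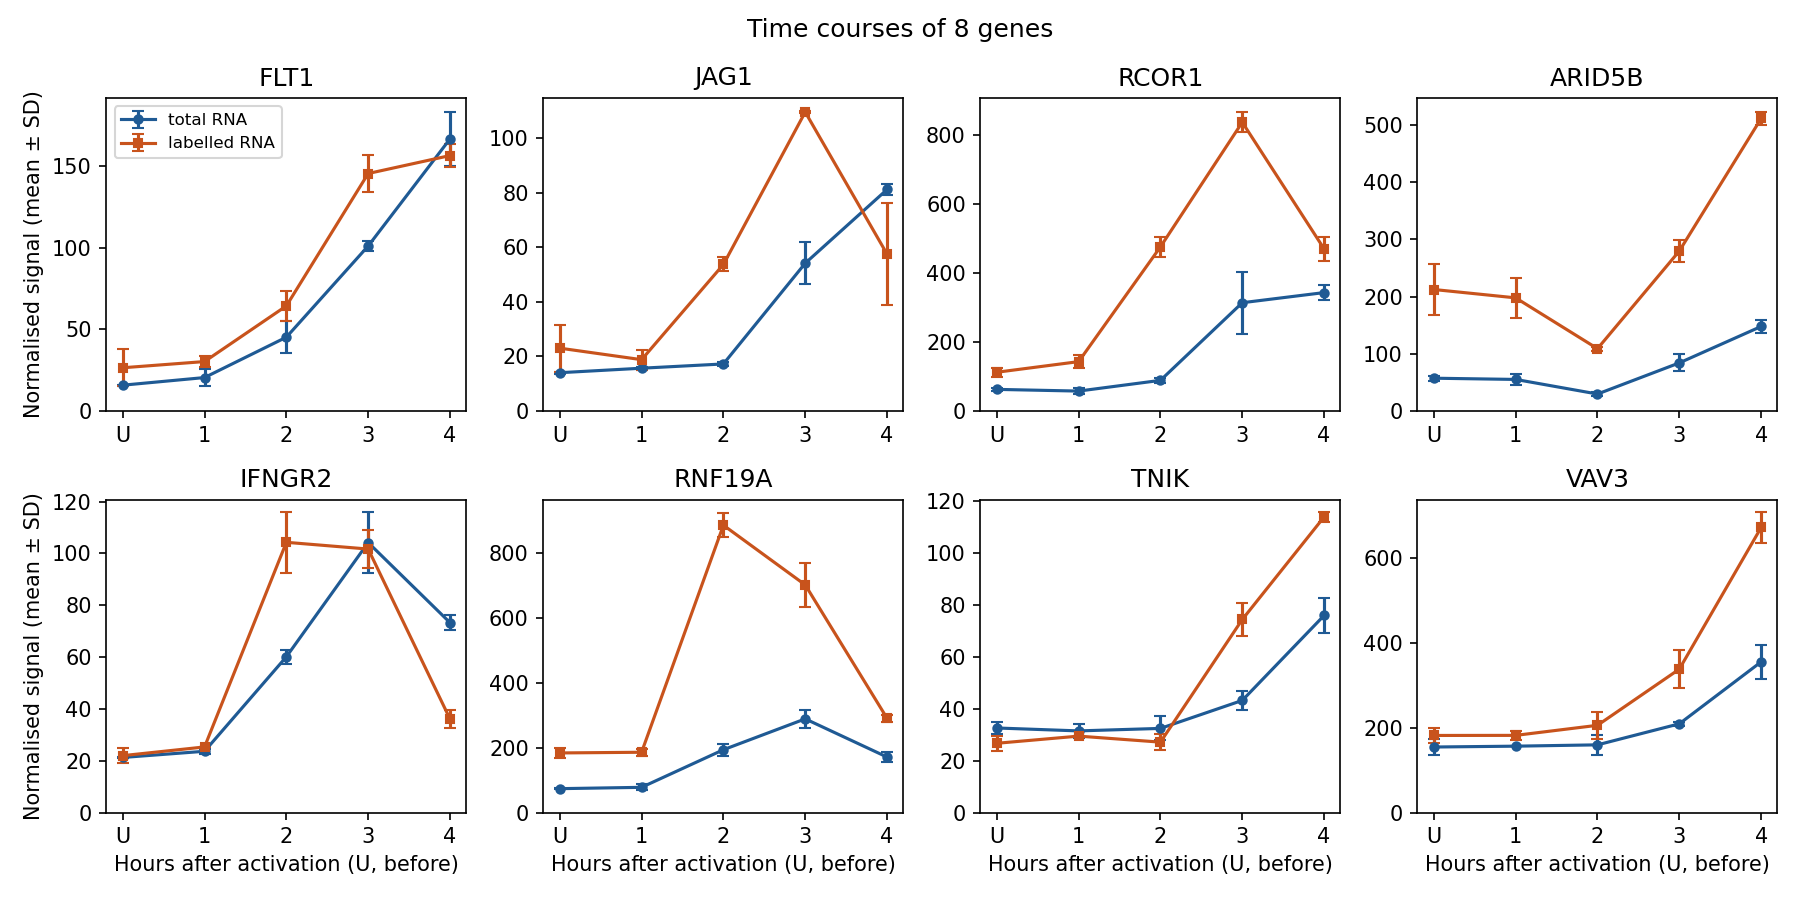
Group means (points) with the deposited SD (bars) of total RNA (blue circles) and labelled RNA (orange squares) before activation (U) and at 1, 2, 3 and 4 h, on the authors' normalised scale, for 8 of the genes. IFNGR2 and RNF19A have their highest labelled mean at 2 h, JAG1 and RCOR1 at 3 h, and FLT1, ARID5B, TNIK and VAV3 at 4 h, and ARID5B has its lowest means at 2 h.

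Chromatin and transcription regulators included several of the largest changes between 2 and 3 h. RCOR1, the CoREST scaffold that joins LSD1 to histone deacetylases, had total values of 62.8 ± 5.23, 57.8 ± 7.55, 88.9 ± 7.54, 314 ± 90.6 and 344 ± 20.8. RCOR1's labelled means were 112 ± 13.7, 143 ± 18.3, 476 ± 28.7, 838 ± 29.5 and 471 ± 35. Labelled RNA was already above all earlier groups at 2 h, and total RNA then rose by 1.81 ± 0.15 (adjusted p = 5.47e-07). Labelled RNA rose by 0.81 ± 0.12 (adjusted p = 1.04e-05) in the same hour, and the labelled-to-total ratio fell by the difference (-0.996 ± 0.19, adjusted p = 0.00399). The SD of total RNA at 3 h was wide, 314 ± 90.6. HDAC7, a class IIa histone deacetylase of thymocytes and T cells, had totals of 10.6 ± 2.09, 12.2 ± 2.77, 17.4 ± 2.58, 36.8 ± 3.95 and 44.4 ± 6.96. HDAC7 rose by 1.04 ± 0.16 (adjusted p = 0.000269) from 2 to 3 h, with a labelled change of 0.37 ± 0.19 (adjusted p = 0.37).

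ARID5B, a DNA-binding protein that works with the demethylase PHF2, fell before it rose. Its total RNA was 57.3 ± 4.67, 55.2 ± 10.4, 29.7 ± 2.68, 84.1 ± 14.9 and 148 ± 12. Labelled RNA of ARID5B was 212 ± 44.4, 198 ± 35.2, 109 ± 3.53, 279.7 ± 19.3 and 511 ± 11. Both kinds of RNA had their lowest mean at 2 h, with SD ranges below those of every other hour. Total RNA fell from 1 to 2 h (-0.87 ± 0.14, adjusted p = 0.000836) and then rose from 2 to 3 h by 1.47 ± 0.13 (adjusted p = 3.35e-07), with labelled RNA rising by 1.35 ± 0.13 (adjusted p = 1.26e-09). JARID2, a DNA-binding partner of Polycomb repressive complex 2, had totals of 49.8 ± 5.05, 49.5 ± 3.1, 57.4 ± 4.84, 98.1 ± 12.1 and 109 ± 10.2. JARID2 rose by 0.76 ± 0.11 (adjusted p = 0.000123) in total and 0.92 ± 0.14 (adjusted p = 2.08e-05) in labelled RNA. MTF2, another Polycomb partner, rose in both steps of total RNA, by 0.51 ± 0.10 (adjusted p = 0.00412) and 0.41 ± 0.09 (adjusted p = 0.00484), while its labelled RNA changed by 0.04 ± 0.11 (adjusted p = 0.921) from 2 to 3 h. Of 82 measured chromatin regulators, 14 rose and 1 fell in total RNA in that hour, with a median of 0.16. In labelled RNA 2 rose and 0 fell. Over all genes 3.94% rose and 3.73% fell in total RNA, and 1.15% and 1.02% in labelled RNA.

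C20orf112, named NOL4L in RefSeq, had the largest change of the group from 2 to 3 h in both kinds of RNA. Its total RNA was 6.77 ± 1.16, 6.7 ± 0.137, 8.47 ± 1.55, 41.2 ± 19.4 and 38.7 ± 5.95. Labelled RNA of C20orf112 was 50.7 ± 10.2, 42.5 ± 7.31, 86.3 ± 4.43, 291 ± 26.6 and 143 ± 14.1. The rise in that hour was 2.15 ± 0.24 (adjusted p = 2.14e-05) in total RNA, where the SD at 3 h was wide, and 1.74 ± 0.16 (adjusted p = 3.39e-10) in labelled RNA. PRDM1, the repressor BLIMP1 of differentiating lymphocytes, was low in total RNA (2.03 ± 0.225, 2.88 ± 0.405, 5.2 ± 0.571, 9.15 ± 3.75 and 5.45 ± 0.395) and highest at 3 h with a wide SD. Its rise of 0.71 ± 0.21 (adjusted p = 0.0401) from 2 to 3 h was lost with the variance of those 2 groups alone. PHF15, named JADE2 in RefSeq and part of a histone acetyltransferase complex, had totals of 23.4 ± 1.4, 26.7 ± 1.63, 37 ± 3.38, 85.9 ± 12.3 and 73.6 ± 5.5. PHF15's labelled means were 34.1 ± 2.21, 36.8 ± 3.45, 102 ± 4.26, 121 ± 11.5 and 60.3 ± 8.58. Total RNA rose by 1.19 ± 0.11 (adjusted p = 9.01e-07) from 2 to 3 h while labelled RNA changed by 0.23 ± 0.18 (adjusted p = 0.607), and the ratio fell (-0.96 ± 0.20, adjusted p = 0.0113). RXRA, the partner of many nuclear receptors, had a change of 0.56 ± 0.18 (adjusted p = 0.0596) in total RNA.

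Regulators of small GTPases, the cytoskeleton and membranes were a further part of the group. FLNA, the actin cross-linker filamin A, had the highest RPKM of the group, with totals of 469.6 ± 70.5, 608 ± 83.4, 738 ± 39.8, 1016 ± 214 and 1148 ± 43.8. FLNA's labelled means were 320.3 ± 50.5, 422 ± 44.5, 683 ± 63, 764 ± 45.3 and 618 ± 166. Its change from 2 to 3 h passed in total RNA (0.46 ± 0.13, adjusted p = 0.0388), a call lost with the variance of those 2 groups alone and under a constant prior variance, and not in labelled RNA (0.16 ± 0.13, adjusted p = 0.643). LASP1, an actin-binding LIM and SH3 protein, rose in both steps of total RNA by 0.41 ± 0.10 (adjusted p = 0.0229) and 0.59 ± 0.09 (adjusted p = 0.000166). RASSF5, the RAP1 and RAS effector that controls integrin adhesion of lymphocytes, was an early member, with totals of 67 ± 3, 81.1 ± 13.1, 124 ± 10.6, 180.5 ± 22.8 and 155 ± 11.2. RASSF5's labelled means were 90.9 ± 11.7, 100.3 ± 20.4, 187 ± 18.3, 184 ± 21.3 and 129 ± 19.8. It rose in both steps of total RNA by 0.61 ± 0.12 (adjusted p = 0.00493) and 0.54 ± 0.11 (adjusted p = 0.0026), and its labelled RNA changed by -0.03 ± 0.15 (adjusted p = 0.968) from 2 to 3 h. Of 74 measured regulators of small GTPases and the cytoskeleton 8 rose and 1 fell in total RNA in that hour (median 0.08). The shares over all genes were 3.94% and 3.73%.

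TSPAN5, a tetraspanin that carries ADAM10 to the cell surface, was a late member, with totals of 23.4 ± 2.76, 26.7 ± 3.91, 29.2 ± 2.85, 52.1 ± 8.29 and 88.8 ± 6.15. TSPAN5's labelled means were 47.7 ± 22.7, 33.4 ± 1.68, 44 ± 6.58, 117 ± 16 and 131 ± 30.4. It rose by 0.82 ± 0.13 (adjusted p = 0.000288) in total and 1.39 ± 0.22 (adjusted p = 0.0001) in labelled RNA from 2 to 3 h. SYNJ2, a phosphoinositide phosphatase, had total RNA of 28 ± 1.93 before activation, 29 ± 4.73 at 1 h and 26.8 ± 3.75 at 2 h, and rose by 0.55 ± 0.12 (adjusted p = 0.00639) in the hour after, a call lost with the variance of those 2 groups alone. ERBB2IP, named ERBIN in RefSeq, a scaffold of epithelial and signalling complexes, went from 380.5 ± 20.2 before activation to 1010 ± 127 at 4 h in total RNA, and rose by 0.71 ± 0.09 (adjusted p = 4.53e-05). MFSD6, a membrane protein of the major facilitator family, had totals of 45.4 ± 1.79, 53.7 ± 7.3, 83.9 ± 6.58, 220.3 ± 51.1 and 266 ± 13.7. MFSD6 rose in every tested step, by 0.63 ± 0.14 (adjusted p = 0.0162), 1.38 ± 0.13 (adjusted p = 9.01e-07) and, in labelled RNA, 0.76 ± 0.17 (adjusted p = 0.00529), the last of these lost under a constant prior variance.

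Members that act on RNA and on protein turnover followed. AGO2, the Argonaute protein that carries miRNAs to their targets, had totals of 40.5 ± 2.6, 43.9 ± 1.82, 48.2 ± 4.66, 97.1 ± 29.9 and 107 ± 5.04. AGO2's labelled means were 86.1 ± 13.5, 87 ± 8.99, 145 ± 4.64, 265 ± 22.2 and 127 ± 22.1. It rose by 0.99 ± 0.15 (adjusted p = 0.000317) in total and 0.87 ± 0.15 (adjusted p = 0.000217) in labelled RNA from 2 to 3 h. CASC7 had nearly the same course (55 ± 8.33, 54.8 ± 2.93, 63.2 ± 6.77, 132 ± 56.8 and 132 ± 11.6 in total RNA), and RefSeq lists this symbol as a synonym of AGO2, so both entries may come from the same transcription unit and are not independent. The total call of CASC7 from 2 to 3 h was lost with the variance of those 2 groups alone. PRPF6, a splicing factor of the U4/U6-U5 particle, had its highest labelled mean at 4 h, with totals of 273 ± 21.8, 296 ± 4.5, 345 ± 31.5, 529 ± 63.8 and 812 ± 53.8. PRPF6's labelled means were 107 ± 21.4, 86.2 ± 21.2, 171 ± 11.4, 359 ± 9.81 and 378 ± 27.4. It rose by 0.61 ± 0.10 (adjusted p = 0.000349) and 1.07 ± 0.14 (adjusted p = 2.18e-06). Of 62 measured genes of RNA binding and mRNA decay 7 rose and 0 fell in total RNA from 2 to 3 h (median 0.18). The shares over all genes were 3.94% and 3.73%.

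A single miRNA locus, MIR29B1, is among the members. The entry gives reads at the locus of a miRNA precursor (chr7:130877459-130877539, minus strand, GRCh38.p14), and which transcript gave them, the primary transcript or another, was not tested. Its mature products in RefSeq are shown because the seed of each (bases 2 to 8, in capitals) helps to define its own targets.
hsa-miR-29b-3p: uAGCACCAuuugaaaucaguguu
hsa-miR-29b-1-5p: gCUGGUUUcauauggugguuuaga

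The arms have different seeds. MIR29B1 had total values of 1.1 ± 0.388, 1.39 ± 0.179, 1.38 ± 0.106, 3.68 ± 1.79 and 3.75 ± 1.13. MIR29B1's labelled means were 10.6 ± 5, 10.7 ± 4.25, 14.8 ± 2.94, 23.6 ± 1.92 and 23.6 ± 5.49. Total RNA rose from 2 to 3 h by 0.97 ± 0.25 (adjusted p = 0.0186), a call lost with the variance of those 2 groups alone, and labelled RNA changed by 0.64 ± 0.29 (adjusted p = 0.297). The level of the mature miRNAs was not measured by these values.

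RNF19A, a RING-in-between-RING ubiquitin ligase, had a pulse of labelled RNA. Its labelled RNA was 184 ± 15.7, 186 ± 10.2, 887 ± 36.4, 702 ± 67.6 and 291 ± 10.0 and its total RNA 73.8 ± 0.95, 77.9 ± 9.1, 194 ± 17.9, 289 ± 26.7 and 171 ± 16.4. Labelled RNA at 2 h lay above all other groups, and total RNA was highest an hour later. Total RNA rose by 1.30 ± 0.11 (adjusted p = 2.78e-07) and 0.57 ± 0.10 (adjusted p = 0.000696), while labelled RNA changed by -0.34 ± 0.11 (adjusted p = 0.109) from 2 to 3 h and the ratio fell (-0.91 ± 0.15, adjusted p = 0.000425). With the variance of the 2 labelled groups alone this labelled change was called as a fall. KLHL24, an adaptor of cullin 3 ubiquitin ligases, had totals of 23.2 ± 1.04, 22.4 ± 0.118, 28.4 ± 1.04, 49.6 ± 1.16 and 57.9 ± 9.24. KLHL24 rose by 0.78 ± 0.11 (adjusted p = 9.48e-05) from 2 to 3 h. Of 81 measured genes of ubiquitin and protein turnover, 8 rose and 2 fell in total RNA in that hour, with a median of 0.08. The shares over all genes were 3.94% and 3.73%.

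PDCD4, an inhibitor of translation initiation and a miR-21 target, had totals of 43.1 ± 4.47, 50.8 ± 6.52, 62 ± 3.92, 88.4 ± 7.72 and 102 ± 13.2. PDCD4 rose by 0.50 ± 0.11 (adjusted p = 0.00695). CCNE2, the cyclin E2 that drives entry into S phase, was level for 2 h in total RNA (77.9 ± 9.62, 85.3 ± 0.119, 74.6 ± 3.74, 115 ± 14.4 and 160.5 ± 8.76) and rose by 0.62 ± 0.10 (adjusted p = 0.00044) in total and 0.78 ± 0.15 (adjusted p = 0.001) in labelled RNA from 2 to 3 h. The 32 measured apoptosis regulators, which include PDCD4 and STK17B, had 4 rise and 3 fall in total RNA in that hour, with a median of -0.09. The 37 measured p53 targets and cell cycle genes had 2 rise and 3 fall, with a median of 0.02. Over all genes 3.94% rose and 3.73% fell. GIMAP5, a GTPase needed for lymphocyte survival, rose by 0.47 ± 0.12 (adjusted p = 0.0221) and 0.79 ± 0.16 (adjusted p = 0.00138), with totals of 29.3 ± 3.06, 30.1 ± 2.53, 30.8 ± 3.83, 43.1 ± 7.16 and 76.8 ± 3.26. The total call was lost with the variance of those 2 groups alone. GIMAP5 lies in a cluster of related GIMAP genes, between which reads may be split.

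PALD1, a phosphatase domain protein named paladin, had the second largest rise by 4 h, with totals of 11.8 ± 0.881, 14.1 ± 1.22, 17.4 ± 1.5, 47.2 ± 3.38 and 75.7 ± 3.4. PALD1's labelled means were 8.87 ± 4.18, 9.08 ± 1.06, 44.1 ± 6, 71.4 ± 5.93 and 58.7 ± 5.5. Total RNA rose by 1.39 ± 0.11 (adjusted p = 9.17e-08) from 2 to 3 h and labelled RNA changed by 0.68 ± 0.25 (adjusted p = 0.153). ZSWIM6, a zinc finger protein, had totals of 4.82 ± 1.8, 6.98 ± 1.39, 10.6 ± 0.392, 29.7 ± 5.95 and 32.1 ± 2.19. ZSWIM6 rose by 1.41 ± 0.19 (adjusted p = 7.28e-05), with a labelled change of 0.84 ± 0.25 (adjusted p = 0.0573) that passed with a pseudocount of 5 and with the variance of the 2 groups alone. MBP, known for myelin basic protein and for the Golli transcripts that T cells make from the same gene, had totals of 26.5 ± 1.93, 26.5 ± 2.2, 36.1 ± 1.21, 91.3 ± 4.38 and 118 ± 4.3. MBP's labelled means were 81.8 ± 26.2, 64.9 ± 18.3, 134 ± 5.46, 294 ± 13.8 and 274 ± 27.7. It rose in every tested step, by 0.43 ± 0.10 (adjusted p = 0.0229), 1.32 ± 0.09 (adjusted p = 1.48e-08) and 1.12 ± 0.17 (adjusted p = 1.12e-05). BAIAP2-AS1, named BAIAP2-DT in RefSeq, is a noncoding RNA from the start of BAIAP2 and had totals of 4.39 ± 0.947, 4.36 ± 0.155, 8 ± 1.09, 15.4 ± 1.38 and 12.5 ± 0.817 against labelled values of 3.43 ± 1.49, 4.01 ± 0.552, 12.3 ± 2.72, 8.39 ± 0.381 and 6.21 ± 2.81. Its total RNA rose by 0.87 ± 0.15 (adjusted p = 0.00103) from 2 to 3 h with a labelled change of -0.50 ± 0.32 (adjusted p = 0.508), the lowest labelled change of the group. The sources used here do not say whether counting used strand, so reads of an overlapping transcript on the other strand cannot be told apart.

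Other members are given more briefly. Glycan and sulfate transfer had GCNT4, CHST2 and ST3GAL1, whose labelled RNA rose from 2 to 3 h by 1.15 ± 0.29 (adjusted p = 0.0226), 0.92 ± 0.18 (adjusted p = 0.00165) and 0.87 ± 0.18 (adjusted p = 0.00273). In total RNA their changes were 0.65 ± 0.16 (adjusted p = 0.0186), 0.78 ± 0.11 (adjusted p = 0.000101) and 0.32 ± 0.14 (adjusted p = 0.177), so ST3GAL1 passed in labelled RNA only. Labelled RNA also passed alone in TREML2 (1.07 ± 0.29, adjusted p = 0.0342), CLEC2B (0.99 ± 0.21, adjusted p = 0.00248) and the tetraspanin TSPAN17 (1.13 ± 0.30, adjusted p = 0.0318). The labelled calls of GCNT4 and TREML2 were lost under a constant prior variance. Total RNA passed in the Hippo pathway members LATS2 (0.73 ± 0.15, adjusted p = 0.00485) and VGLL4 (0.43 ± 0.08, adjusted p = 0.00215), in the tripartite motif ligases TRIM71 (0.998 ± 0.16, adjusted p = 0.000352) and TRIM9 (0.79 ± 0.11, adjusted p = 0.000141), and in the arrestin ARRB1 (0.53 ± 0.10, adjusted p = 0.00206). The genes UPP1, PARP8, ZDBF2, SLC35G2, RASGEF1B, ZNF512B, GBP3, SFMBT1, FAM126B (HYCC2 in RefSeq), TMEM194A (NEMP1), RAP2C, KCTD9, DCUN1D3 and RP11-94L15.2 rose in total RNA from 2 to 3 h by 0.39 to 1.09. Of these, UPP1, SLC35G2 and DCUN1D3 lost the call with the variance of the 2 groups alone, and UPP1 also with a pseudocount of 0.5. The change did not pass in total or labelled RNA for PBXIP1, PLEKHF1, CKLF, UBL3, SAMD8, KIAA0355 (GARRE1), DSP, CTSB and SLC31A2, with total changes of 0.09 to 0.47. SAMD8 had nearly equal changes of 0.26 in both kinds of RNA, with a ratio change of 0.00 ± 0.17.

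Of 24 gene lists, 12 held 26 of the members and 57 members were in none. The lists of NF-kB genes, MAP kinase genes, immediate early and AP-1 transcription factors, NFAT and calcium genes, interferon response, glycolysis, lipid metabolism, transporters, stress responses, cytokines and housekeeping genes held 0 members. Each of these lists had 5 to 51 measured genes and members made up 1.11% of all genes, so a list with 0 members is near the background. Immediate early and AP-1 factors, with 24 genes measured, had 7 rise and 1 fall in total RNA from 1 to 2 h and 0 rise and 5 fall from 2 to 3 h. NF-kB genes, with 39 measured, had 8 rise and 2 fall in the earlier hour and 7 rise and 3 fall in the later. NFAT and calcium genes, with 33 measured, had 1 rise and 1 fall and then 6 rise and 0 fall. Over all genes 1.76% rose and 1.1% fell in the earlier hour, and 3.94% rose and 3.73% fell in the later. The rule took genes on labelled RNA at 1 h and left out by name CFLAR, PPP3CA and SLC7A11, which belong to these lists and met its thresholds, so their absence follows in part from the choice.

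The labelled-to-total ratio compares each gene with the typical gene of the same libraries, since the sources used here do not state how labelled RNA was scaled against total RNA. Over the members the median log2 ratio was 0.68 before activation, 0.59 at 1 h, 0.85 at 2 h, 0.82 at 3 h and 0.41 at 4 h. Over all genes it was 0.15, 0.11, 0.07, 0.10 and 0.14, and in the early set it was highest at 1 h, at 1.30. From 2 to 3 h the ratio rose in 1 member (TNIK) and fell in 4 (RCOR1, IFNGR2, PHF15 and RNF19A), where 0.227% of all genes rose and 0.281% fell. The median change was -0.12, against 0.00 for all genes and -0.28 for the early set. Labelled RNA had changed more than total RNA in 62 members at 2 h, in 60 at 3 h and in 26 at 4 h. Matching shares over all genes were not counted, so these counts describe the members only. The early set also had larger median changes in labelled than in total RNA, 1.55 against 0.90 at 2 h and 1.72 against 1.42 at 3 h. Over all genes these medians were 0.02 against 0.07 and 0.00 against 0.04. At 4 h the rule set a higher threshold for total than for labelled RNA, without comparing these changes with each other. Its cut on labelled RNA at 1 h also bears on the 1 h ratios of the members and of the early set. The values at 1 and 4 h therefore follow in part from the choice and carry no test.

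The authors' deposited decay rates, on a natural log scale, are built from the same means, as the log of total RNA less 0.266 times labelled RNA, divided by the total of the hour before, or, in unactivated cells, by their own total. A lower value therefore stands for a faster loss of older RNA. The median over members with a rate was -0.56 before activation, -0.37 at 1 h, -0.43 at 2 h, -0.20 at 3 h and -0.23 at 4 h. Over all genes the medians were -0.34, -0.29, -0.33, -0.36 and -0.36. At 3 h, 20 of 80 members (25%) had a rate above 0, against 1.65% of all genes with a rate. Such a value means that total RNA less the scaled labelled part was larger than all RNA of the hour before. In the early set the share was 13.5% (10 of 74), and among the 20 genes past the threshold for total RNA alone it was 20% (4 of 20). The highest rates at 3 h were those of BAIAP2-AS1 (0.50), PALD1 (0.48) and MFSD6 (0.41), and the lowest those of PTK2B (-2.97), GIMAP5 (-1.68) and PRDM1 (-1.58). At 3 h PTK2B had 29.1 ± 7 in total and 106.5 ± 10.7 in labelled RNA, GIMAP5 43.1 ± 7.16 and 140.5 ± 2.15, and PRDM1 9.15 ± 3.75 and 30.4 ± 13.9. Little total RNA was left in each after the scaled labelled part, so these lowest rates rest on small differences and are uncertain. C20orf112, MIR29B1 and ST3GAL1 have no rate at 3 h, since their scaled labelled part was as large as the total or larger, and members without a rate are left out of the medians. The rates at 2 and 3 h use none of the unactivated or 4 h means of the rule, and they have no SD of their own here.

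HuR, encoded by ELAVL1, is an RNA-binding protein that stabilises many AU-rich transcripts, and the authors' deposited table carries scores and calls of its binding. A call from iCLIP, a crosslinking method that maps binding on RNA, was given to 12 of 83 members (14.5%) and 19.4% of all genes. An ELAVL1 target call for the 3' untranslated region was given to 43 of 76 members with a call (56.6%) and 61.0% of all such genes. The joint HuR call was positive in 8 of 40 members with a value (20%) and 11.6% of all such genes. It was positive in 11 of 58 genes of the early set (19.0%) and in 6 of 15 of those past the threshold for total RNA alone (40%). The 8 members were ZSWIM6, AGO2, VGLL4, MTF2, TMEM194A, VAV3, FAM126B and RAP2C. The sources used here do not say how these calls were made.

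LOD scores of HuR binding before activation and at 4 h were deposited for 40 members. The median was -7.26 at 0 h and -7.54 at 4 h, with a median difference of 0.73 between the times, against 0.88 over all genes and 2.48 in the early set. The score was higher at 4 h in 23 of 40 members (57.5%), in 61.7% of all genes with scores and in 48 of 58 genes of the early set (82.8%). Above 0 at 4 h were 5 of 40 members (12.5%), against 8.19% of all genes with scores and 15.5% of the early set. Among those past the threshold for total RNA alone the share was 26.7%. The 5 members were ZSWIM6 (1.69), RAP2C (1.46), AGO2 (1.43), MTF2 (1.20) and TMEM194A (0.64). Of these, RAP2C (2.00), AGO2 (0.54) and MTF2 (1.76) were already above 0 before activation, and RAP2C and MTF2 scored lower at 4 h. The largest increases in score were in RNF19A, from -22.71 to -16.73, TMEM194A, from -4.64 to 0.64, CDK17, from -5.17 to -0.31, PHF15, from -10.16 to -5.31, and RASSF5, from -4.93 to -0.68. For RNF19A, CDK17, PHF15 and RASSF5 the score was below 0 at both times and the joint HuR call was negative. Each score is a single deposited value with no replicate, so no difference between the sets was tested.

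Facts of the whole series bear on these values as follows. Group means summed to between 913919 and 1037463, near a per-million scale, and read depth is unknown. The median coefficient of variation between samples was 6.37% to 11.2% in total RNA and 10.4% to 18.2% in labelled RNA, where unactivated cells had the largest. For T cells 7 of 12 listed markers were measured, among them CD3D, CD3G, CD247, LCK and ZAP70. Their summed total RNA ran from 1925 before activation to 2442 at 4 h. Between these times CD3D went from 671 ± 30.1 to 884 ± 134, and CD3G from 256 ± 17 to 217 ± 8.66. Of markers of other cell types, AIF1 and VCAN of myeloid cells summed to between 99.3 and 124 in total RNA. AIF1 was 86.2 ± 6.64 before activation and 85.2 ± 7.59 at 4 h, and VCAN 26.7 ± 3.29 and 14.1 ± 2.51. THY1 and VIM, which fibroblasts share with some T cells, summed to between 412 and 588, highest at 4 h. Nearly all of that sum was VIM (401 ± 27.1 before activation, 576 ± 81.7 at 4 h), while THY1 was 11.5 ± 2.6 and 11.9 ± 3.04. The part of these marker changes in the changes above was not tested.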

How the data were processed

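Total RNA and 4sU-labelled RNA of Jurkat cells were compared over 5 times. Per the submitters' processing notes, the authors aligned reads with TopHat2 to hg19, counted with HTSeq and used edgeR. The sources used here do not state tool versions, the labelling time or the scaling of labelled against total RNA. The deposited table gives, per the file headers, means of a normalised signal and their SDs for each group, and no value of a single sample. The authors' deposited table also holds RPKM values, decay rates on a natural log scale, and HuR LOD scores.

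The design was written for values of single samples. limma 3.58.1 in R 4.3.3 was therefore run from the summaries, on log2(mean + 1) with SDs carried to that scale to first order. Variances were pooled over the 5 groups of a kind of RNA (9 degrees of freedom), or all 10 groups for the ratio (18), and squeezed by limma's robust option along a trend with the mean. Benjamini-Hochberg adjustment ran over all 7485 genes, calls were made at an adjusted p under 0.05, and a change is log2 ± SE, which understates low genes. Total and labelled values of a culture were treated as independent. The fit was tested on simulated data. CRYBG3 fills 2 entries and is no member. Depth is unknown, so no counting interval is given, and the p-values rest on the spread between samples labelled as biological replicates.

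Members, gene lists and tests were chosen with earlier results of these data known. The genes given with full values were those with the largest 4 h rise, the top members of each list, the extremes of each tested step, the neighbours of each threshold, the extremes of HuR scores and decay rates and the members with the highest total signal. Other members are named or counted, and 2 members, though counted, are not reported here by name. Promoters and miRNAs came from RefSeq (GRCh38.p14), and 82 members matched it by symbol, synonym or gene ID. Alternatives were other pseudocounts (0.5 and 5), a minimum mean of 10, median centring, quantile normalisation, the variance of the compared groups alone and a constant prior variance.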

Additional observations from a re-analysis of the deposited data

How the results depend on the processing

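Across 7 alternative settings the counts of members that rose or fell stayed within 1.5 times the reported count, except where named here. With the variance from the compared groups alone, 33 members rose in total RNA from 1 to 2 h (21 as reported) and 1 fell in labelled RNA from 2 to 3 h (RNF19A, 0 as reported). The same setting gave 136 of all genes rising in total RNA from 2 to 3 h against 295, 330 against 704 from 1 to 3 h, and 222 against 86 in labelled RNA, so the background moved as well. A constant prior variance left 25 members rising in labelled RNA (55 of all genes). Membership itself depended on the thresholds: 146 genes met thresholds looser by 0.1 and 59 met stricter ones, 66 and 86 met them with pseudocounts of 5 and 0.5, and 73 after median centring. The ratio change of SAMD8 from 2 to 3 h turned to -0.0174 under median centring, near 0 in both. The cause was not tested in any case.

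No paired analysis was possible because the deposited table gives group means and SDs and no value of a single sample. For the same reason fits leaving out a replicate were not run, and whether 1 sample decides a mean is unknown. At 1 h each mean rests on 2 samples.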
